A study of Rattus norvegicus with 6 samples.

Results

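The kinesin family genes of the deposited table are the protein coding genes whose symbol is Kif followed by a number, with an optional letter a to c, or Kifc followed by a digit. This rule finds 41 of 37991 genes in the table, of which 22640 are protein coding. Kinesins are motor proteins that hydrolyse ATP to walk along microtubules or to take them apart at their ends. Some build the mitotic spindle, move chromosomes and split the daughter cells, and these are made mainly by dividing cells. Others carry membranes, mitochondria, mRNA granules and ciliary proteins along processes, and a myelinating oligodendrocyte depends on such transport because myelin basic protein is translated at the tips of its processes from mRNA delivered there. By these textbook roles the 41 genes fall into 14 mitotic kinesins, 15 transport kinesins and 12 other kinesins, which act in cilia, in signalling or on microtubule ends.

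The study sequenced total RNA of rat (SD strain) oligodendrocyte cultures, with 3 precursor and 3 differentiated libraries. The precursors are the control condition and were grown in Raff medium, a defined culture medium for this lineage. The differentiated cells came from the same kind of culture after a change of growth factors, and titles of replicates 1 and 2 place them at day 3, against day 0 for precursors. No age of the animals, genotype or added agent is labelled. The replicates are numbered 1, 2 and 5 in both groups. The labels do not say that they are separate cultures, so a p-value covers the spread between the samples at hand and no more, and that spread may be technical. Libraries held 55522101 to 79898629 counts. All 10 markers of myelinating oligodendrocytes rose (median log2 fold change 3.75). The summed level of 6 precursor markers, none of which passed the test, was 1173 to 2056 CPM in precursors and 1318 to 1871 CPM in differentiated libraries. With the replicate number as a block in the fit, 3 of them were higher and 1 lower. Without both replicate 1 libraries 1 was higher and 1 lower. Both replicate 1 libraries stood apart, with microglia markers at a summed 829 CPM in the precursor and 580 CPM in the differentiated library, against 295 to 320 CPM in the other 4. Fibroblast and pericyte markers were also higher there (301 and 187 CPM, against 42.5 to 86.5 CPM). So were endothelial markers (39.3 and 28.6 CPM, against 12.3 to 18.1 CPM). Since each library is RNA of a whole culture, fewer cells of a type and less RNA per cell cannot be told apart.

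Between precursors and differentiated cells, 6 kinesins were higher and 9 lower in differentiated cells among the 38 tested (edgeR's quasi-likelihood test, Benjamini-Hochberg adjusted p under 0.05 over the 17797 genes tested). Of all genes tested, 5.65% were called higher and 3.21% lower. At an unadjusted p under 0.05 in edgeR, 2210 of the 17797 genes were higher and 1900 lower, the background for unadjusted counts below. The 9 that fell were all mitotic kinesins, out of 12 tested, and included the spindle motor Kif11 and the cytokinesis motors Kif23 and Kif20a. The 6 that rose were the transport kinesins Kif13b, Kifc3 and Kif17 and the other kinesins Kif19, Kif21a and Kif26a. Levels between libraries are given as CPM, read counts relative to the library total with trimmed-mean (TMM) scaling, where 1 CPM stood for 55.0 to 72.0 reads in a library. Changes are log2 fold changes of differentiated over precursor cells with their standard error (SE), and the median over all genes tested was -0.04.

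The remaining 3 members did not pass the low-count filter. Kif2b, a microtubule depolymerase of the spindle, had 0 reads in every library. Kif4b had 20, 4 and 0 reads in precursor replicates 1, 2 and 5 and 4, 0 and 0 in the differentiated ones, and as a near-identical copy of Kif4a its reads are uncertain. Kif12 had 12 reads in differentiated replicate 2 and 0 in the other 5 libraries. Without the filter, edgeR gave adjusted p of 0.586 for Kif4b and 0.421 for Kif12, and Kif2b has no test.

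**Figure D1:**
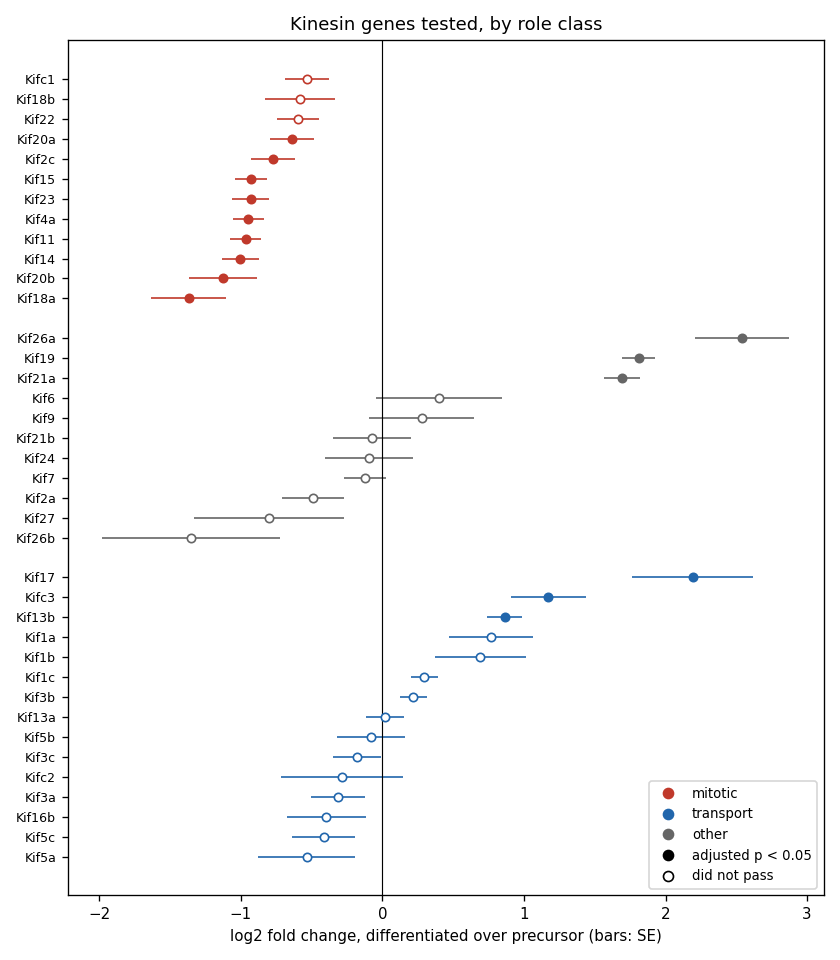
Log2 fold change of the 38 tested kinesins (x axis, differentiated over precursor, bars are SE), grouped by role class. Filled points passed the test: 9 of the 12 mitotic kinesins lie to the left of 0, and 3 transport and 3 other kinesins lie to the right.

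Every one of the 12 tested mitotic kinesins had a negative log2 fold change, from -1.37 for Kif18a to -0.53 for Kifc1, with a median of -0.93. None passed the test in the other direction, and none had an unadjusted p under 0.05 there, while 11 did in the lower direction. With the replicate number as a block in edgeR all 12 passed as lower, in a fit that called 15.7% of all genes lower and 14.9% higher. Without both replicate 1 libraries 11 passed as lower, against 8.11% of all genes lower and 8.48% higher. The count fell to 5 without precursor replicate 2, differentiated replicate 2 or differentiated replicate 5, in fits that called 0.872%, 0.804% and 0.923% of all genes lower.

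Of the motors of the spindle itself, 2 of 3 passed. Kif11 (NCBI gene 171304), the motor that pushes spindle poles apart by sliding antiparallel microtubules, stood at 127, 146 and 132 CPM in precursor replicates 1, 2 and 5 and at 68.7, 73.3 and 64.9 CPM in the differentiated ones. The groups lay well apart, and the mean fell from 135 ± 9.95 to 68.9 ± 4.22 CPM (SD, n = 3), a log2 fold change of -0.97 (SE 0.11, edgeR adjusted p = 0.0024). Kif15 (gene 353302), which can take over from Kif11 in keeping the spindle bipolar, read 42.2, 47.7 and 43.7 CPM in precursors and 23.8, 23.6 and 22.7 CPM in differentiated cells. The 3 differentiated values lay close together, below every precursor value (44.5 ± 2.81 to 23.4 ± 0.603 CPM, SD, n = 3, log2 fold change -0.93, SE 0.11, edgeR adjusted p = 0.00321). Kifc1, a minus-end motor that focuses spindle poles, went from 61.1, 72.2 and 65.7 CPM to 37.4, 54.3 and 45.8 CPM. Its groups did not overlap, but it did not pass (-0.53, SE 0.16, edgeR adjusted p = 0.0904), and passed with the replicate block (adjusted p = 0.00409).

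Motors that act on chromosomes and microtubule ends followed the same direction. Kif18a (gene 362186), which damps the movements of chromosomes at the spindle equator, had the largest fold of the class, 2.58-fold lower: 57.1, 38.5 and 36.9 CPM in precursors and 23.3, 14.4 and 13.5 CPM in differentiated cultures (-1.37, SE 0.27, edgeR adjusted p = 0.0222). Replicate 1 was the highest library of each group, the groups did not overlap, and the call was lost without precursor replicate 2 (adjusted p = 0.0686), differentiated replicate 2 (0.104) or differentiated replicate 5 (0.0945). Its close relative Kif18b, which acts on astral microtubules, read 12.7, 20.2 and 24.3 CPM against 11.2, 13.4 and 13.6 CPM. Here the lowest precursor value lay within the differentiated range, and the gene did not pass (-0.58, SE 0.25, edgeR adjusted p = 0.216), though it did with the replicate block (0.0329) and without both replicate 1 libraries (0.0259).

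Kif4a (gene 84393), a chromokinesin that also organises the central spindle, fell from 73.2, 83.3 and 78.8 CPM to 40.2, 43.2 and 38.5 CPM, groups that did not overlap (-0.95, SE 0.11, edgeR adjusted p = 0.00273). Kif22, a chromokinesin that pushes chromosome arms towards the equator, read 169.7, 226 and 185 CPM against 116, 146 and 124 CPM. All 3 differentiated libraries were below all 3 precursor libraries, and the adjusted p of 0.0509 in edgeR was just outside the threshold (-0.59, SE 0.15). With the replicate block it was 0.000813, and without both replicate 1 libraries 0.0291. Kif2c (gene 171529), a depolymerase that corrects wrong attachments at kinetochores, fell from 71.7, 102 and 81.8 CPM to 44.0, 53.2 and 52.1 CPM (-0.77, SE 0.16, edgeR adjusted p = 0.0264). Its groups did not overlap, and its adjusted p was 0.0633 to 0.094 on leaving out any single library other than precursor replicate 1.

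Of the 4 motors of cytokinesis, all fell. Kif23 (gene 315740), the motor of the centralspindlin complex, stood at 44.2, 39.8 and 38.3 CPM in precursors and 20.6, 23.9 and 19.6 CPM in differentiated cells (-0.93, SE 0.13, edgeR adjusted p = 0.0058). Kif14 (gene 360849), which recruits citron kinase to the midbody, went from 30.8, 35.4 and 35.1 CPM to 16.5, 18.3 and 15.7 CPM (-1.004, SE 0.13, edgeR adjusted p = 0.00462). In both genes the libraries of a group were close together and the groups far apart, and both calls held on leaving out any single library. Kif20a (gene 361308), which carries Aurora kinase B to the central spindle, fell from 119.6, 159.6 and 141 CPM to 76.1, 98.8 and 95.0 CPM (-0.64, SE 0.15, edgeR adjusted p = 0.0451). Its groups did not overlap, but this was the weakest call of the class: it was lost under the relative log expression scaling of edgeR (0.0505), in limma on log2(TPM + 1) (0.0708) and without any single library except precursor replicate 1 (0.0892 to 0.152). Kif20b (gene 309523), its relative at the midbody, read 44.8, 28.2 and 26.6 CPM against 17.9, 14.5 and 13.2 CPM (-1.13, SE 0.24, edgeR adjusted p = 0.0292). Replicate 1 was again the highest library of each group, and the call was lost without precursor replicate 2 (0.0719), differentiated replicate 2 (0.124) or differentiated replicate 5 (0.122).

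**Figure D2:**
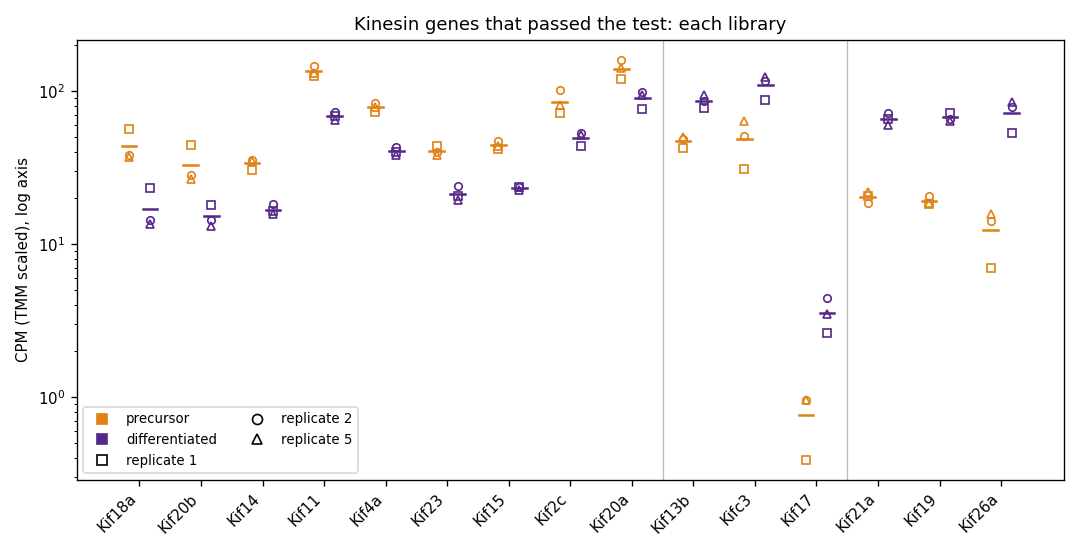
CPM of each library (log y axis) for the 15 kinesins that passed the test, with horizontal lines at the group means and marker shapes for the replicate numbers. Mitotic kinesins are on the left, transport kinesins in the middle and other kinesins on the right, and no gene has overlapping groups.

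Many genes of mitosis share a pair of promoter elements, a CCAAT box and a cell cycle genes homology region (CHR). Both were looked for in the promoters of all kinesins with an entry, and their part in the changes was not tested. The promoters are windows of 250 bases before to 50 bases after a RefSeq transcript start on assembly GRCr8, and 30 of the 41 kinesins have an entry. Of their 31 entries, 11 have a start equal to the gene start in the RefSeq gene table. Matches and positions therefore depend on the start used. The letters searched were CCAAT or its reverse complement ATTGG for the CCAAT box, and TTTGAA, its reverse complement TTCAAA or the palindrome TTCGAA for the CHR. The end of one motif may share a base with the start of the other. A CCAAT box was found in 7 of 11 mitotic, 3 of 11 transport and 3 of 8 other kinesins, against 39.6% of all genes in the promoter table and 39.3% of those tested here. A CHR was found in 6 of 11 mitotic, 0 of 11 transport and 2 of 8 other kinesins, against 21.0% of all genes and 15.2% of those tested. Both were present in 5 mitotic kinesins (Kif4a, Kif20b, Kif22, Kif23 and Kifc1), in Kif24 and in Kif26b, against 9.15% of all genes and 6.97% of those tested. These matches are descriptions of letters, not sites shown to be bound, and shares of so few genes are coarse.

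Windows from 100 bases before the start to 10 bases from it on are shown for 4 kinesins with both elements, for Kif15 with the CHR alone, for Kif11 with the CCAAT box alone, and for Kif17 and Kif21a, which rose and hold neither. Capitals mark the motif letters, and all run 5′ to 3′ on the strand of the gene. Counted with the start as 1, the CHR lies at -79 in Kif23 (chr8:71320575-71320684, minus strand), at -16 in Kif22 (chr1:191080869-191080978, minus strand), at -22 in Kifc1 (chr20:5000829-5000938, plus strand) and at -3 in Kif4a (chrX:69761783-69761892, plus strand). It lies at -46 in Kif15 (chr8:131479304-131479413, plus strand), which has further CHR letters at -249, outside the printed window. The CCAAT box of Kif11 is at -61 (chr1:244536767-244536876, plus strand). Kif17 is at chr5:155765492-155765601 on the plus strand and Kif21a at chr7:124058531-124058640 on the minus strand.
Kif23: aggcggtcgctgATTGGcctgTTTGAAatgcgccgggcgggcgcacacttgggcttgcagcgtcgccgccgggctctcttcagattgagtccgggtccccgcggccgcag
Kif22: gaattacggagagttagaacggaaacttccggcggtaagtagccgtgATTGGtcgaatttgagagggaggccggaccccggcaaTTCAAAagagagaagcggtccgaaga
Kifc1: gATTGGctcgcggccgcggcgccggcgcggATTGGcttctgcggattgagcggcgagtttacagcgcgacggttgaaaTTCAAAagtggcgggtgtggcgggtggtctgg
Kif4a: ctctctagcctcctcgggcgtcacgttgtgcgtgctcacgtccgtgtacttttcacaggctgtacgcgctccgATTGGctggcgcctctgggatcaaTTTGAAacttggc
Kif15: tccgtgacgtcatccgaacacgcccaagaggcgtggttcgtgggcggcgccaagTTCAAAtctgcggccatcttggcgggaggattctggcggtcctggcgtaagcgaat
Kif11: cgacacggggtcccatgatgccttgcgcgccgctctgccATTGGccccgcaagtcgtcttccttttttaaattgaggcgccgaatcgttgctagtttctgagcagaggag
Kif17: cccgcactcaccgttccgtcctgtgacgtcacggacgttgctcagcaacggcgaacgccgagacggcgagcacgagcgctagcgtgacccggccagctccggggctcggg
Kif21a: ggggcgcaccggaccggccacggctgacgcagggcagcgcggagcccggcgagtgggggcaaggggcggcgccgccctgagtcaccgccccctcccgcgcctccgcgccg

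In Kif4a, Kif22, Kif23 and Kifc1 a CCAAT box read as ATTGG stands upstream of the CHR in the printed window. Of these 4, Kif4a and Kif23 passed the test as lower, and Kif22 and Kifc1 did not. Kif20b, which fell, has its CHR letters at -116, 2 and 8. Kif20a, which also fell, has CCAAT letters at -220, -125 and -98 and no CHR letters in the window. Kif18a and Kif2c, which fell as well, hold neither element, and nor does Kif18b, which did not pass. Of the kinesins called lower, 8 have an entry, and 3 of these hold both elements. Among those called higher only 2 have an entry, Kif17 and Kif21a. Kif24 and Kif26b hold both elements and did not pass the test.

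The 15 transport kinesins did not move as a block. Their median log2 fold change was 0.02, 8 were positive and 7 negative, and 3 passed as higher and 0 as lower in edgeR (5 and 0 at an unadjusted p under 0.05, and 0 lower in DESeq2, which called 5.98% of all genes lower and 7.29% higher). With the replicate number as a block 7 passed as higher and 2 as lower, in a fit that called 14.9% of all genes higher and 15.7% lower. Without both replicate 1 libraries 3 passed as higher and 1, Kif5c, as lower, against 8.48% of all genes higher and 8.11% lower. On the deposited TPM scale with limma, which called 2.74% of all genes higher and 5.62% lower, 1 passed, Kif17, and on leaving out single libraries 1 to 3 did. The count was 1 without precursor replicate 2, differentiated replicate 2 or differentiated replicate 5, where 2.74%, 2.63% and 2.72% of all genes were called higher.

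Among the vesicle motors of the kinesin-3 family, Kif13b (gene 305967), which carries membrane cargo with the scaffold Dlg1 and has been linked to myelination, rose from 42.7, 48.8 and 50.5 CPM to 77.9, 86.5 and 93.8 CPM. The groups were far apart against their spread (47.3 ± 4.14 to 86.1 ± 7.97 CPM, SD, n = 3, 1.82-fold higher, log2 fold change 0.86, SE 0.12, edgeR adjusted p = 0.00613), and the call held on leaving out any single library. On log2(TPM + 1) in limma it was not called (adjusted p = 0.196). Its relative Kif13a, a motor of recycling endosomes, had means of 37.6 ± 3.71 and 38.1 ± 4.39 CPM (SD, n = 3) and a log2 fold change of 0.02 (SE 0.14, edgeR adjusted p = 0.96).

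Kif1a, the carrier of synaptic vesicle precursors in neurons, read 108, 175 and 243 CPM in precursor replicates 1, 2 and 5 and 234, 295 and 365 CPM in the differentiated ones. Kif1b, a motor of mitochondria and vesicles that zebrafish oligodendrocytes need to place myelin mRNA, read 105, 141 and 219 CPM against 174, 238 and 339.6 CPM. In both genes replicate 1 was the lowest and replicate 5 the highest library of each group, so that the groups overlapped while each of the 3 same-numbered pairs was higher in differentiated cells. Neither passed (Kif1a 0.77, SE 0.30, edgeR adjusted p = 0.178, and Kif1b 0.69, SE 0.32, 0.255), and both passed with the replicate block (0.0022 and 0.000462). Kif1c, which moves integrin vesicles and mRNAs, read 175, 192 and 185 CPM against 220.1, 236 and 222 CPM. Its groups did not overlap but differed little (0.30, SE 0.10, edgeR adjusted p = 0.112, 0.00921 with the block). Kif16b, a motor of early endosomes, read 24.9, 14.2 and 13.6 CPM against 16.2, 12.8 and 11.0 CPM and did not pass (-0.40, SE 0.28, edgeR adjusted p = 0.46), with replicate 1 the highest of each group.

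The kinesin-1 heavy chains, the conventional motors of axons and processes, showed no call in the unblocked fit. Kif5b, the chain made in most tissues, read 339 CPM in precursor replicate 1 and 237 and 233 CPM in the other 2, and 342, 224 and 198 CPM in differentiated cells. The replicate 1 libraries stood above the rest in both groups, and the log2 fold change was -0.08 (SE 0.24, edgeR adjusted p = 0.886). The chain Kif5c, which is most abundant in neurons, read 90.1, 133 and 161 CPM against 80.1, 105 and 102 CPM, and Kif5a read 8.25, 16.0 and 14.4 CPM against 5.48, 10.5 and 10.7 CPM. Both were lower in differentiated cells in each of the 3 pairs with overlapping groups, did not pass (-0.42, SE 0.22, edgeR adjusted p = 0.312, and -0.54, SE 0.34, 0.409), and passed as lower with the replicate block (0.0277 and 0.0151).

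The kinesin-2 motors drive anterograde transport in cilia and carry vesicles. Kif17 (gene 500571), a homodimeric kinesin-2 known for moving NMDA receptor vesicles in dendrites, rose from 0.392, 0.964 and 0.959 CPM to 2.62, 4.46 and 3.53 CPM, that is from 25, 69 and 69 reads to 188, 288 and 194 reads. The groups did not overlap, and the 4.57-fold difference was the largest among transport kinesins, at a low level (log2 fold change 2.19, SE 0.43, edgeR adjusted p = 0.0227). The call was lost without precursor replicate 2 (0.0741), precursor replicate 5 (0.0596), differentiated replicate 2 (0.1) or differentiated replicate 5 (0.0838). Of 13 tested neuron markers 0 were higher and 1 lower (0 and 3 at an unadjusted p under 0.05 and with the block, 0 and 4 without both replicate 1 libraries), and 12 of 13 log2 fold changes were negative, with a median of -0.76. Their sum was 246 to 471 CPM in precursors and 265 to 306 CPM in differentiated libraries. The part of neurons in the values of Kif17, Kif5a and Kif5c was not tested. Kif3b, one partner of the heterotrimeric kinesin-2, read 53.6, 54.2 and 55.0 CPM against 62.5, 62.7 and 64.1 CPM. The groups were tight and did not overlap, but the difference was small and did not pass (0.22, SE 0.10, edgeR adjusted p = 0.228, 0.0456 with the block). Kif3a (38.0 to 30.6 CPM in the mean, -0.31, SE 0.19) and Kif3c (52.2 to 46.0 CPM, -0.18, SE 0.17), its relatives, did not pass either (edgeR adjusted p = 0.375 and 0.594).

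Of the minus-end transport motors of the kinesin-14 family, Kifc3 (gene 307644), which acts in Golgi positioning and at cell junctions, rose from 31.2, 51.0 and 63.6 CPM to 88.3, 117 and 123 CPM. Replicate 1 was the lowest library of each group and the groups did not overlap (48.6 ± 16.4 to 109 ± 18.6 CPM, SD, n = 3, 2.25-fold higher, log2 fold change 1.17, SE 0.26, edgeR adjusted p = 0.0375). The call was lost with library sizes alone as scaling (0.0918), in limma on log2(TPM + 1) (0.156), and without precursor replicate 2 (0.125), differentiated replicate 2 (0.134) or differentiated replicate 5 (0.137). Kifc2, an axonal motor, had means of 1.49 ± 0.692 and 1.22 ± 0.130 CPM (SD, n = 3, -0.29, edgeR adjusted p = 0.756).

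Of the 11 other kinesins tested, 3 rose, 0 fell (3 and 0 at an unadjusted p under 0.05 in edgeR) and the median log2 fold change was -0.07. With the classes as given, 3 were also called higher in every alternative fit and in every fit without 1 library. Kif19 (gene 303659), a depolymerase at the tips of motile cilia, rose from 18.5, 20.7 and 18.6 CPM to 72.2, 66.0 and 64.1 CPM (3.50-fold higher, log2 fold change 1.81, SE 0.12, edgeR adjusted p = 0.000322). Kif21a (gene 300158), which stops microtubule growth at the cell cortex and in axons, rose from 20.7, 18.7 and 21.9 CPM to 65.9, 71.9 and 60.2 CPM (3.23-fold higher, 1.69, SE 0.13, edgeR adjusted p = 0.000533). The spread within each group was a small part of the distance between the groups in both genes. Kif26a (gene 314473), an atypical kinesin without motor activity that dampens growth factor signalling through Grb2, rose from 7.04, 14.3 and 15.9 CPM to 53.3, 79.1 and 84.5 CPM (5.83-fold higher, 2.54, SE 0.33, edgeR adjusted p = 0.00461). Replicate 1 was the lowest in both groups, and the lowest differentiated library was still far above the highest precursor library. These 3 calls held on leaving out any single library, with the replicate block, without both replicate 1 libraries and in limma on log2(TPM + 1), with adjusted p of 0.0309 or less.

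Beside Kif19, of 11 tested markers of ependymal and multiciliated cells, 0 rose and 0 fell in edgeR (0 and 1 at an unadjusted p under 0.05 and with the block, 3 and 1 without both replicate 1 libraries). Their sum was 50.8 to 58.3 CPM in precursors and 54.6 to 66.5 CPM in differentiated libraries. Kif9 and Kif6, motors of motile cilia, had means of 1.41 and 0.855 CPM in precursors and 1.71 and 1.13 CPM in differentiated cells, and did not pass (edgeR adjusted p = 0.722 and 0.662). Astrocyte markers moved with the groups: 4 of 10 rose (8 at an unadjusted p under 0.05 and with the block, 6 without both replicate 1 libraries, 0 lower in each), and their sum was 4351 to 6144 CPM in precursors and 7904 to 8194 CPM in differentiated libraries. The part of astrocytes in the rise of these kinesins was not tested.

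The remaining other kinesins did not pass. Kif21b, the relative of Kif21a that acts in neurons and immune cells, read 38.8, 54.9 and 83.5 CPM against 47.4, 54.0 and 67.2 CPM, fully overlapping (-0.07, SE 0.28, edgeR adjusted p = 0.913). Kif2a, a depolymerase of spindle poles and neurites, read 27.6, 26.6 and 39.4 CPM against 19.6, 19.3 and 28.0 CPM, lower in each of the 3 pairs, and passed as lower with the block alone (-0.49, SE 0.22, edgeR adjusted p = 0.239, 0.00579 with the block). Kif7, the ciliary regulator of Hedgehog signalling, had means of 19.9 ± 2.15 and 18.3 ± 1.38 CPM (SD, n = 3, -0.12, edgeR adjusted p = 0.689). Its relative Kif27 and the centriolar depolymerase Kif24 read 2.40 to 1.38 and 8.21 to 7.70 CPM in the mean, with edgeR adjusted p of 0.43 and 0.899. Kif26b, the relative of Kif26a that acts in kidney development, was the one gene of this class whose differentiated libraries were all lower: 53, 64 and 54 reads against 9, 31 and 20. At that depth it did not pass (-1.35, SE 0.63, edgeR adjusted p = 0.254).

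Beside each other, mitotic and transport kinesins differed in their counts of calls (0 higher and 9 lower of 12 against 3 higher and 0 lower of 15) and in their medians (-0.93 against 0.02). With the replicate block the counts were 0 higher and 12 lower of 12 against 7 higher and 2 lower of 15. That fit called 14.9% of all genes higher and 15.7% lower. By library values alone, groups did not overlap in 11 mitotic kinesins, all lower, and in 5 transport kinesins, all higher (Kif13b, Kifc3, Kif17, Kif1c and Kif3b). Over all genes tested 13.8% were lower and 16.5% higher without overlap. The summed level of mitotic kinesins was 854, 999 and 889 CPM in precursors and 496, 577 and 518 CPM in differentiated cells, with no overlap. That of transport kinesins was 1081, 1201 and 1386 CPM against 1414, 1512 and 1650 CPM, and the lowest differentiated library was just above the highest precursor library. In TPM the transport sums overlapped, at 192, 261 and 351 in precursors and 223, 281 and 327 in differentiated cells. The mitotic sums stayed apart there, at 265, 377 and 398 against 137, 196 and 188 TPM. Sums in TPM also depend on 1 small RNA, Rn7sl1, which took 24.0% to 38.7% of the TPM of a library. Within a library, the ratio of mitotic to transport kinesins in deposited TPM, which corrects for transcript length, was 1.38, 1.44 and 1.13 in precursors and 0.617, 0.698 and 0.573 in differentiated cells. So mitotic kinesins made up more than transport kinesins in each precursor library and less in each differentiated library on that scale, while on the CPM scale, where long transcripts weigh more, the ratio was below 1 in all 6. The classes were chosen with these results known, so the ratio is given without a test.

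**Figure D3:**
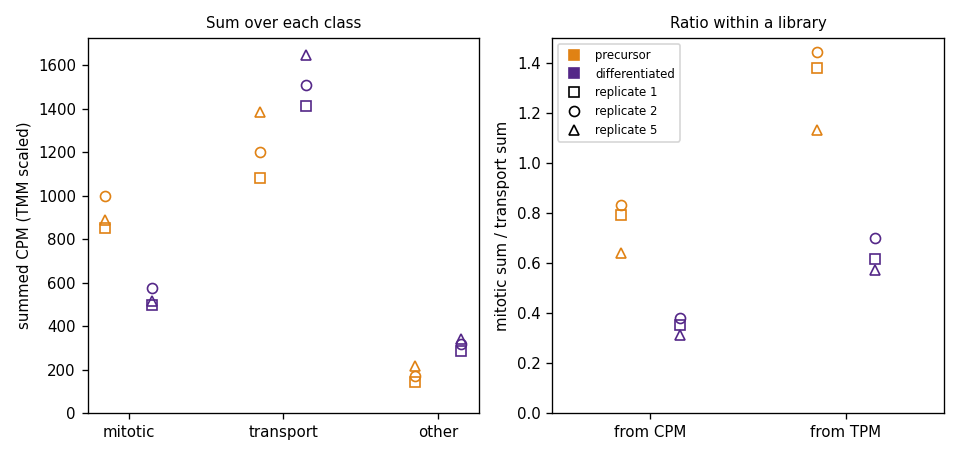
Left, CPM summed over each role class for the 6 libraries. Right, the ratio of the mitotic to the transport sum within each library from CPM and from TPM: the TPM ratio is 1.13 to 1.44 in precursors and 0.573 to 0.698 in differentiated cells.

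The order of levels was read from TPM, since only a value per length compares genes. Kif22 had the highest mean TPM of the family in both groups, 108 ± 25.4 in precursors and 59.8 ± 11.9 in differentiated cells (SD, n = 3). It did not lead in every differentiated library: Kif5b was higher in replicate 1 (52.9 against 46.5 TPM) and Kif1a in replicate 5 (68.7 against 63.2 TPM). In precursors Kif20a (55.9 ± 14.3), Kif5b (54.5 ± 4.12), Kif1c (45.1 ± 9.37) and Kif1a (37.7 ± 20.4) came next. In differentiated cells the next were Kif1a (51.8 ± 17.01), Kif1c (44.9 ± 6.02), Kif5b (43.6 ± 8.16) and Kif1b (40.4 ± 17.6), so 4 transport kinesins took ranks 2 to 5. Most neighbours in the order did not differ beyond their spread: of the 37 neighbouring pairs among the 38 tested genes, the ranges of TPM overlapped in 35 in precursors and in 33 in differentiated cells. Kif22 was separate from Kif20a in precursors. Among genes that passed the test, Kif19 went from rank 23 (6.41 ± 1.14 TPM) to rank 9 (18.6 ± 1.15 TPM), Kifc3 from 13 to 6, Kif26a from 31 to 14 and Kif21a from 29 to 16. In the other direction Kif18a went from rank 14 (14.7 ± 1.68 TPM) to rank 25 (4.73 ± 0.852 TPM) and Kif20a from 2 to 7. Kif17, the transport kinesin with the largest fold change, had 0.282 ± 0.151 TPM in precursors and 1.06 ± 0.353 TPM in differentiated cells.

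**Figure D4:**
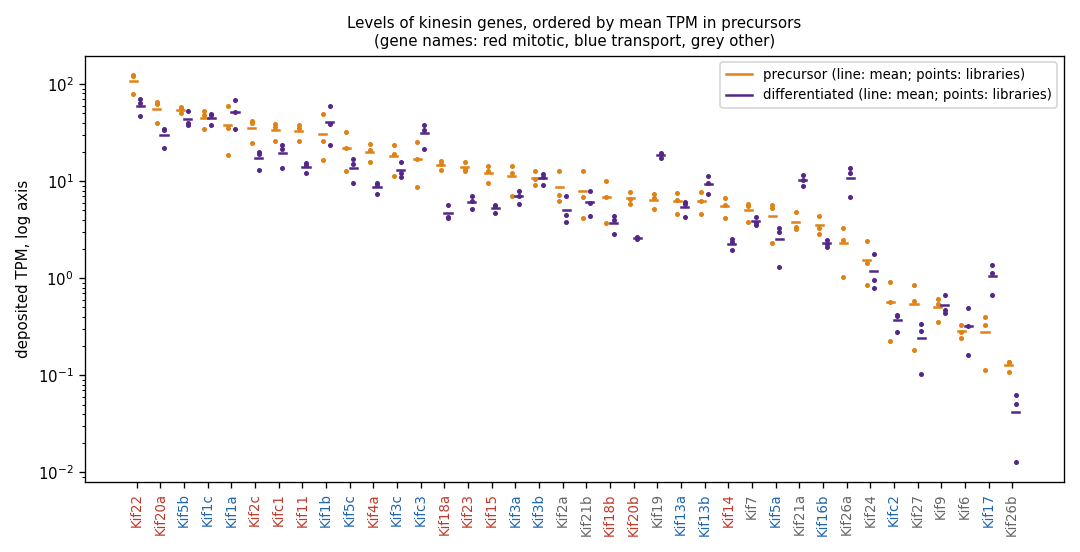
Deposited TPM (log y axis) of the 38 tested kinesins, ordered by the precursor mean, with 1 point per library and a line at each group mean. Kif22 has the highest mean in both groups, and points of neighbouring genes overlap for most of the order.

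To compare close relatives, the ratio of their CPM was formed within each library for 16 pairs of the same subfamily. In 5 pairs the 3 precursor and 3 differentiated ratios did not overlap, and no share over other gene pairs was formed beside this count. Kif13b, Kif21a, Kifc3 and Kif26a had passed as higher themselves and their relatives had not passed. Their ratios therefore largely restate those calls. The ratio of Kif13b to Kif13a was 1.28, 1.22 and 1.28 in precursors and 2.25, 2.01 and 2.57 in differentiated cells, a difference of 0.85 on the log2 scale. That of Kif21a to Kif21b was 0.532, 0.340 and 0.262 against 1.39, 1.33 and 0.896 (1.71 on the log2 scale). Since transcript lengths differ, such a ratio does not say which relative is more abundant, but its change between libraries does not depend on length. Kifc3 to Kifc2 was 41.4, 32.0 and 29.9 against 82.3, 88.6 and 96.8 (1.38), and Kif26a to Kif26b was 8.47, 16.0 and 21.1 against 425, 165 and 232 (4.16), where Kif26b rests on 9 to 64 reads a library. Kif3a to Kif3b, the partners in the ciliary kinesin-2 motor, went the other way, from 0.538, 0.714 and 0.845 to 0.453, 0.536 and 0.464 (-0.51), where the highest differentiated ratio was just below the lowest precursor ratio. The exact two-sided permutation test of 3 against 3 cannot go below p = 0.1, which all 5 reached, and adjusted over the 16 pairs each was 0.32.

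**Figure D5:**
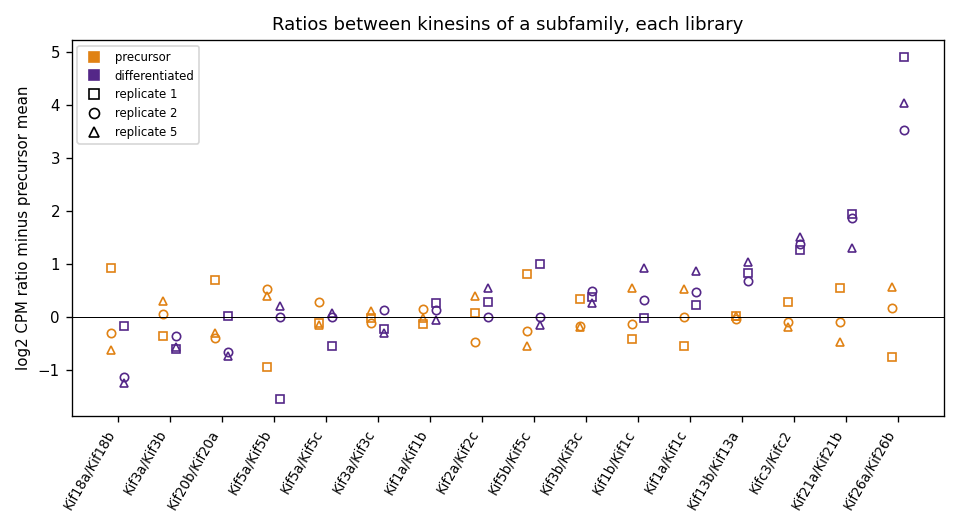
Log2 CPM ratio of 16 pairs of related kinesins in each library, as the difference from the mean of the precursor libraries. Groups are apart for Kif13b to Kif13a, Kifc3 to Kifc2, Kif21a to Kif21b and Kif26a to Kif26b, above 0, and for Kif3a to Kif3b, below 0.

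Genes that work with kinesins were counted in 4 lists. Of 32 partners of mitotic kinesins, such as spindle, kinetochore and cytokinesis proteins, 20 fell and 0 rose in edgeR (30 and 0 at an unadjusted p under 0.05), all 32 had a negative log2 fold change and the median was -0.73. The largest decreases were in the cohesin protector Sgo1 (17.04 to 6.92 CPM in the mean, -1.30), the spindle protein Hmmr (61.1 to 26.3, -1.22), the kinetochore protein Nuf2 (53.4 to 23.9, -1.16) and the checkpoint kinase Bub1 (91.0 to 42.6, -1.09), with edgeR adjusted p of 0.00281 to 0.00684. Cenpe, a kinesin of kinetochores whose symbol the rule leaves out, fell from 45.1 ± 4.37 to 17.8 ± 2.50 CPM (SD, n = 3, -1.34, SE 0.15, edgeR adjusted p = 0.00252). Stard9, a further kinesin outside the rule, which acts at centrosomes, did not pass (-0.05, edgeR adjusted p = 0.946).

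Of 29 kinesin light chains and cargo adaptors, 3 rose and 0 fell in edgeR (4 and 1 at an unadjusted p under 0.05, 6 and 2 with the replicate block, median 0.09). Mapk8ip1, a scaffold that links kinesin-1 to its cargo, rose from 166 ± 19.1 to 488 ± 53.2 CPM (SD, n = 3, 1.56, SE 0.13, edgeR adjusted p = 0.000903). The adaptor Apba1, which ties Kif17 to its vesicles, rose from 4.76 to 11.6 CPM (1.29, edgeR adjusted p = 0.0151), and the kinesin-1 adaptor Fez1 from 374 to 710 CPM (0.92, edgeR adjusted p = 0.0375). The last 2 calls were lost on leaving out single libraries, with adjusted p of 0.0562 to 0.0757 without precursor 2, differentiated 2 or differentiated 5 for Apba1 and of 0.063 to 0.148 without the same libraries or precursor 5 for Fez1. Dynein, the motor that carries cargo the opposite way, and its dynactin complex had 2 of 30 genes higher and 1 lower, with a median of 0.09 (8 and 6 with the block). The unblocked counts are near the background of 5.65% and 3.21% of all genes, and the block called 14.9% and 15.7% of all genes. The light chain Dynll2 rose from 33.1 to 114 CPM (1.78, SE 0.16, edgeR adjusted p = 0.000976), Bicd2 from 73.2 to 114 CPM (0.64, 0.025) and Hook1 fell from 15.4 to 8.97 CPM (-0.78, 0.0314). The calls of Bicd2 and Hook1, both cargo adaptors of dynein, were lost on leaving out single libraries (up to 0.105 and 0.131). Of 25 genes of intraflagellar transport, the ciliary cargo trains of kinesin-2, 0 rose and 1 fell in edgeR (1 and 2 at an unadjusted p under 0.05) with a median of -0.02: Ift57, from 28.8 to 13.0 CPM (-1.15, SE 0.16, edgeR adjusted p = 0.00511).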

How the data were processed

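The members, role classes and gene lists were chosen with earlier results of these data known, and no list was tested as a list. The tools before deposit were, per the submitters' processing notes, StringTie 2.1.3b, HISAT2 2.1.0, Trimmomatic 0.38 and bcl2fastq 2.20.0. The notes name the human build GRCh38, while the gene identifiers of the table are those of rat. The rat build, annotation and use of strand in counting were not given in the sources used here. Therefore reads of overlapping or antisense genes cannot be told apart, and no coordinates of the authors' alignment are printed. The authors deposited 1 table with whole-number read counts that are not normalized, with FPKM values, not used here, and with TPM values, which scale transcripts per length to a fixed total. A small RNA, Rn7sl1, took 24.0% to 38.7% of the TPM of a library. TPM is therefore used mainly to order genes within a group, and CPM to compare libraries. Where TPM sums, means or fits of the 2 groups are also given, their differences depend in part on that RNA. The table held 0 columns of samples outside the series.

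Counts were fitted with edgeR 4.0.16 in R 4.3.3 (TMM scaling, the low-count filter of that package, robust quasi-likelihood test, group as the only term, 4 residual degrees of freedom) over all genes that passed the filter, with Benjamini-Hochberg adjustment over these. A gene was called at an adjusted p under 0.05, and its SE is the log2 fold change divided by the square root of F. The steps of this fit were tested on simulated counts, drawn as independent libraries with no replicate effect. That test therefore does not cover differences shared by same-numbered libraries. Alternatives were the replicate block, DESeq2 1.42.0, library sizes alone, relative log expression scaling (RLE), no low-count filter, limma 3.58.1 on log2(TPM + 1) with a pseudocount of 1, the fits without each single library and without both replicate 1 libraries, and wider role classes.

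Whether replicate numbers pair the samples was checked on deviations of log2 CPM from group means. Same-numbered libraries correlated across genes at 0.421 (number 1), 0.197 (2) and 0.272 (5), and different numbers at 0.105 or less. The margin was smaller for numbers 2 and 5 than for number 1. The numbers come from the sample titles, and no label says that they are pairs. They were treated as pairs in the replicate block and where pairs are counted, while the main fit does not use them. The block leaves 2 residual degrees of freedom.

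Each member is accounted for. Values by library are given for the members called in each class, up to 10, and for the 4 with the highest mean TPM; some others are added. From each surrounding list up to 4 called genes with the largest change are named. All 41 gene identifiers matched the RefSeq gene table of assembly GRCr8, and the promoter windows are on the same assembly.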

Additional observations from a re-analysis of the deposited data

How the results depend on the processing

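With the replicate number as a block, edgeR called 10 kinesins higher and 15 lower, against 6 and 9 without it: 7 transport kinesins higher and 2 lower (Kif5a and Kif5c), and 1 other kinesin lower (Kif2a). Over all genes that fit called 14.9% higher and 15.7% lower, against 5.65% and 3.21% without the block. The block changed 10 of 23 uncalled members and lost none of the 15 calls. Without both replicate 1 libraries 1 transport kinesin was lower, in a fit that called 8.11% of all genes lower. On log2(TPM + 1) in limma 1 transport kinesin was higher. Leaving out single libraries gave 5 to 11 kinesins lower, all of them mitotic, 4 to 6 kinesins higher and 1 to 3 transport kinesins higher. Over those 6 fits the 15 calls were kept in 67 of 90 instances. Of the uncalled members, 5 changed sign on leaving out a library: Kif24 ranged from -0.39 to 0.17, Kif21b ranged from -0.29 to 0.26, Kifc2 ranged from -0.60 to 0.055, Kif5b ranged from -0.34 to 0.12 and Kif13a from -0.079 to 0.090 (log2 fold changes). Kif13a was also at -0.14 with library sizes alone and -0.16 in limma on log2(TPM + 1), where Kif3b was at -0.016. The median of all genes was -0.19 with library sizes alone and -0.17 in limma, and that of mitotic kinesins -1.08 and -1.02. The other fits called 8 to 12 mitotic kinesins lower and 0 higher, of 12 tested, or 13 in DESeq2 and without the low-count filter, where Kif4b was also tested. Over all genes, higher and lower calls were 678 and 1006 with library sizes alone and 487 and 1000 in limma, against 1005 and 571. With Kif2a and Kif24 counted as mitotic and Kif21a and Kif21b as transport, the counts were 9 of 14 lower and 4 of 17 higher. The causes of these differences were not tested. Depth limits Kif26b, Kif17, Kif6, Kif9, Kifc2 and Kif27, which had 231 or more reads in all over the 6 libraries but fewer than 100 in at least 1.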
